A study of Nannochloropsis oceanica with 12 samples.

Results

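Under the authors' scaling between libraries, 5331 of the 5375 peaks in the deposited table had a higher lysine lactylation signal in nitrogen-deprived than in nitrogen-replete cells, here called higher peaks. Every deprived library lay above every replete one in 99.2% of the listed peaks under that scaling, and in 41.5% when libraries were given equal totals over the listed peaks. The 652 peaks described here are those higher peaks with the most signal in replete cells, 12.2% of the higher peaks and 12.1% of the list. They were chosen by the authors' group means alone: a replete mean of at least 16 normalised reads (4 on the log2 scale) and a deprived mean above the replete mean. A normalised read is a read as it went into the authors' means, after any earlier steps and their scaling between libraries. Because both group means chose the peaks, levels and ratios of the 2 conditions are given as a description without a test.

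In lysine lactylation a lactyl group, derived from lactate through lactyl-CoA, is joined to the lysine side chain, and on histones of mammalian cells it is known to accompany gene activity. Nannochloropsis oceanica is a single-celled marine alga that slows its growth and stores triacylglycerol when it runs out of nitrogen. An antibody against lactyllysine pulls down chromatin that carries the group on any of its proteins, so a peak is a place along the genome where such chromatin was enriched.

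The study holds 12 libraries of strain IMET1 in 4 groups of 3, and the labels describe 3 cultures per condition. Cells at an OD750 of 2.5 were moved into replete f/2 medium or into nitrogen-free f/2 medium (deprived) and collected after 72 h. Chromatin of each condition was precipitated with the lactyllysine antibody, and the other 6 libraries were made without antibody and were not analysed here. Replete mark below therefore means reads of the antibody libraries, with no comparison made here to those without antibody. Every group shares the strain, the temperature of 25 °C, continuous light and 1.5% CO2.

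Each peak is 401 bp wide. Its positions are those of the authors' table, on a genome build that none of these sources names, so no peak was assigned to a gene or given its sequence. The table holds group means, from which whole reads per library could be recovered, and within each condition these libraries carry the letters A, B and C by ascending worth of 1 read, since the table ties none to a replicate number. The replete libraries stood apart from each other, with 89564, 30954 and 19082 reads in the listed peaks against 1351261 to 1620064 in the deprived libraries. Total library depth was not analysed here. A recovered 0 is what went into the authors' mean after any earlier steps, which are not described, and some reads may have been sequenced there.

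The name of the group, peaks gained in deprivation with residual replete mark, follows from the rule under the authors' scaling. All 652 passed the authors' FDR of 0.05 and 594 passed an FDR of 0.01. The number of peaks tested is not stated and was taken as the highest row number, 5389. Of these, 98.9% passed 0.05 as higher and 96.2% passed 0.01. The highest FDR of any listed peak was 0.0499, so every listed peak passes 0.05 by the make-up of the list. In all 652 every deprived library lay above every replete library, as it did in 99.2% of the listed peaks. Once every library was given the same total over the listed peaks (equal reads), this held for 0 of the 652 and for 41.5% of the list. At equal reads the opposite order, every replete library above every deprived one, was found in 247 of the 652 and in 6.53% of the list. The rule used this contrast, so nothing is read from these counts about the peaks. Which scaling follows the amount of mark per cell was not tested.

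The replete mark of the 652 peaks was low but spread over most libraries. Their replete mean had a median of 20.5 normalised reads (quartiles 17.8 and 25.4, range 16.01 to 72.2), where the other 4679 higher peaks had a median of 4.14 and could not exceed 16. In reads, replete library A held a median of 42 per peak (range 0 to 105), library B 18 (range 0 to 78) and library C 9 (range 0 to 58). In the other higher peaks these medians were 9, 0 and 0. The rule chose by replete mean, which raises the share of replete reads in the 652 peaks. The 652 held 30.0% of the library A reads in listed peaks, 40.7% of those of library B and 42.4% of those of library C. The deprived libraries placed 12.7% of theirs in the same peaks, close to the 12.1% of the list that the 652 make up.

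Reads were present in all 3 replete libraries in 361 of the 652 peaks, in exactly 2 in 266 and in a single library in 25. Library A stood at 0 in 8 of them, library B in 118 and library C in 190. Of the peaks with reads in 2 libraries, 165 had them in A and B, 95 in A and C, and 6 in B and C. Among the other higher peaks 228 of 4679 had reads in all 3 libraries and 1179 in none. The choice by the mean of the same 3 libraries helps to set this contrast and leaves none of the 652 without reads. Library A had the highest normalised level in 460 of the 652, library B in 107 and library C in 85. Among the 3500 other higher peaks with replete reads these counts were 2629, 533 and 338. In 47 of the 652 library A supplied more than 90 percent of the level. Its median share of the level was 54.0% in the 652 and 95.6% in those 3500 others.

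**Figure D1:**
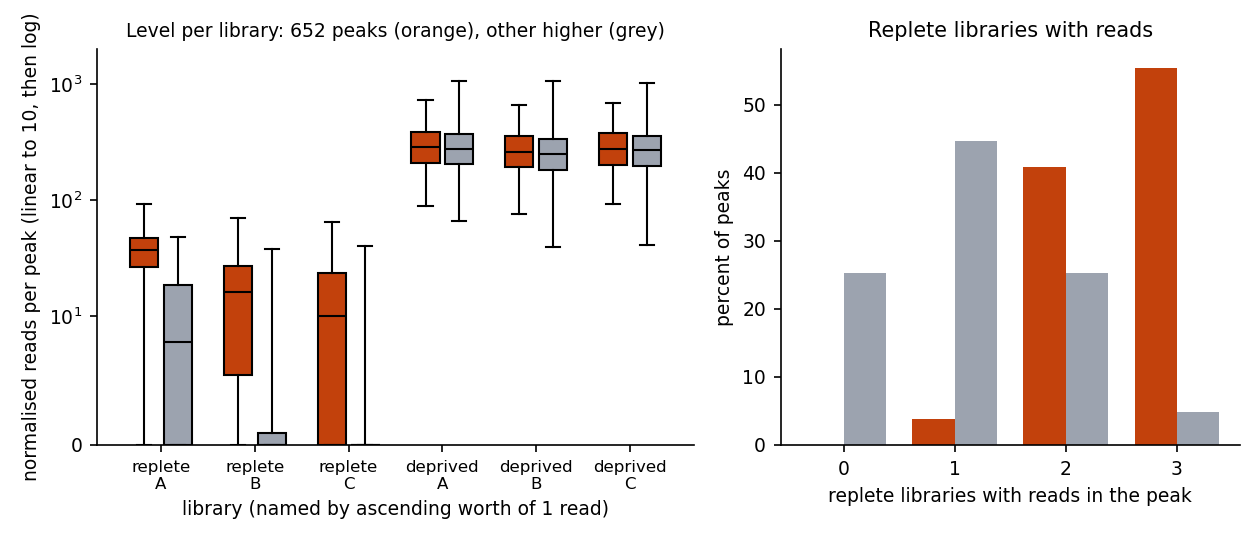
Left, normalised reads per peak in each of the 6 libraries (linear axis to 10, logarithmic above), with orange boxes for the 652 peaks and grey boxes for the 4679 other higher peaks; boxes give quartiles and median, whiskers the lowest and highest peak. Right, percent of peaks with reads in 0, 1, 2 or 3 replete libraries, where 55.4% of the 652 and 4.87% of the others had reads in all 3. The choice by replete mean helps to set that contrast.

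The spread between replete libraries was wide. The median coefficient of variation over the 3 replete libraries was 87.5% per peak (quartiles 53.3% and 109.6%), against 8.77% over the 3 deprived libraries in the same peaks. A subset of 105 peaks reached 16 normalised reads in each replete library separately. It was picked out after its values were seen, and that choice itself sets its median replete mean of 30.3 normalised reads and its median coefficient of variation of 30.4%. Its median deprived mean was 278.5 normalised reads and that of the remaining 547 was 272.6. The subset lay on 28 of the 30 chromosomes.

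The 44 peaks that were lower in deprived cells had stronger replete marks, though they were listed for that direction. Their replete means ran from 69.3 to 149 normalised reads, with a median coefficient of variation of 25.3%. Only 2 of the 652 peaks, peak_3922 and peak_1910, reached the lowest of them.

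Those 2 peaks lead the list by replete level. Peak_3922 on chromosome 4 from 206030 to 206430 had 93, 78 and 57 reads in the replete libraries (A, B and C, the order used throughout) and 156, 141 and 125 in the deprived ones. Its means were 72.2 replete and 146.7 deprived normalised reads, and the authors' deposited table gave a log2 fold change of 1.02 with an FDR of 0.00334. Peak_1910 on chromosome 18 from 737642 to 738042 had 105, 67 and 50 replete reads against 274, 147 and 192 deprived reads. Both conditions had reads in every library at these peaks, and in both peaks the lowest deprived library exceeded the highest replete one.

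The next 3 by replete level had reads in every library too. Peak_855 on chromosome 12 from 711491 to 711891 held 53, 67 and 56 replete reads and 127, 85 and 102 deprived reads. In peak_101 on chromosome 1 from 567568 to 567968 the counts were 60, 47 and 55 replete against 216, 146 and 173 deprived. Peak_5375 on chromosome 9 from 1094272 to 1094672 had 74, 47 and 39 replete and 255, 287 and 247 deprived reads. Peak_855 combined the third highest replete mean with the lowest deprived mean of the 652 (109 normalised reads), which left it with the lowest ratio of the 2 conditions, 1.93. Ranked by deprived mean among the 5331 higher peaks, these 5 peaks stood at places 4873, 3698, 5281, 4197 and 2477, so 4 of them lay below the middle of that order.

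The threshold cut through a continuous range. Just inside it were peak_3481 on chromosome 29 from 270261 to 270661 (44, 0 and 8 replete reads, mean 16.0059), peak_1909 on chromosome 18 from 719584 to 719984 (50, 4 and 0) and peak_4530 on chromosome 6 from 499348 to 499748 (8, 33 and 10). Just outside were peak_717 on chromosome 11 from 1119353 to 1119753 with 31, 14 and 7 replete reads, peak_4209 on chromosome 5 from 296744 to 297144 and peak_3171 on chromosome 26 from 155495 to 155895. The last 2 had 54 reads in library A and 0 in B and C. Over the 3 replete libraries together the 652 peaks had 45 to 228 reads. At that depth an exact Poisson 95% interval reached below the threshold in 336 of the 652, and it reached the threshold in 548 of the other higher peaks. The interval covers counting error only and takes the recovered reads as plain counts. It would be too narrow if a control had been subtracted, which is not known.

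Whether the replete mark recurred between libraries was examined by choosing peaks without the library in question. When peaks were chosen by the mean of replete libraries B and C alone, 343 higher peaks reached 16 normalised reads. Library A, which that choice did not use, had a mean of 29.6 reads in them and 14.7 in the peaks not chosen, and stood at 0 in 7.58% against 32.0%. With A and C choosing 982 peaks, library B had a mean of 10.3 reads in them against 3.69 elsewhere. With A and B choosing 1108 peaks, library C had 6.20 against 2.07. The unused library was therefore 2.01, 2.80 and 3.003 times as high in the chosen peaks, for A, B and C in turn.

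That recurrence was partial. In the peaks chosen without it, library B stood at 0 in 43.6% (71.9% of those not chosen) and library C in 55.3% (81.0%). The unused library itself reached 16 normalised reads in 67.6% of the chosen peaks for A, 25.2% for B and 17.2% for C. In the peaks not chosen these shares were 35.5%, 7.77% and 5.40%. Across all 5331 higher peaks, Spearman's rho between replete libraries was 0.28 for A and B, 0.25 for A and C and 0.24 for B and C, whereas each pair of deprived libraries gave 0.94. These are descriptions across peaks, which share libraries and are not replicates. Within the 652 the replete pairs gave -0.23, -0.26 and -0.07, values that the choice by a mean of the same 3 libraries helps to set.

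**Figure D2:**
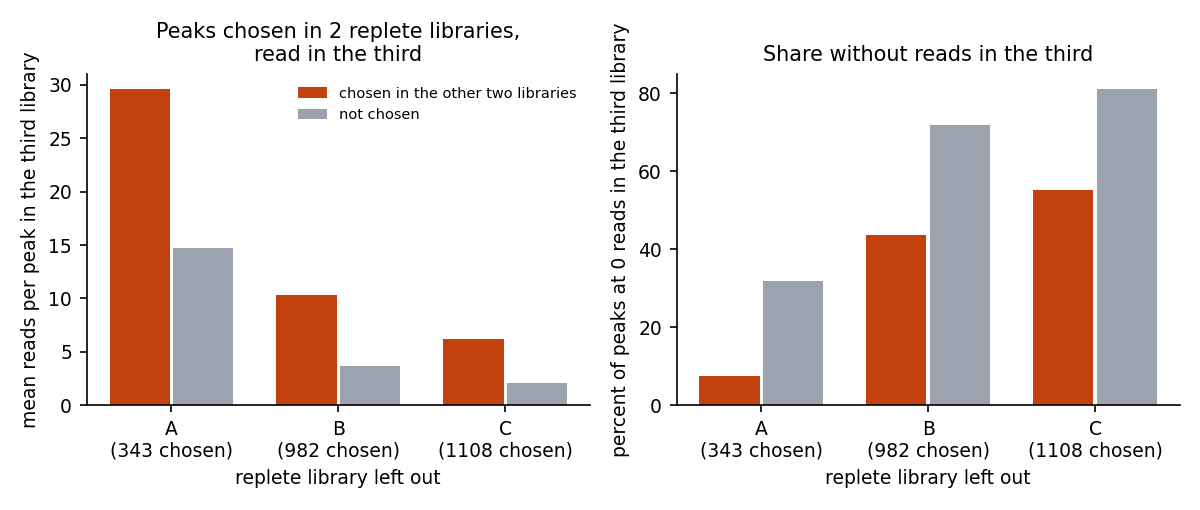
Higher peaks chosen by the mean of 2 replete libraries (at least 16 normalised reads, orange) and those not chosen (grey), as seen in the replete library that was left out of the choice. Left, mean reads per peak, 29.6 against 14.7 for library A; right, percent of peaks at 0 reads, 7.58% against 32.0% for library A.

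In deprived cells the 652 peaks looked much like the other higher peaks. Their deprived mean had a median of 273.8 normalised reads (quartiles 201.4 and 377.2, range 109 to 694) and that of the others 264.5 (quartiles 194.9 and 354.4, range 78.1 to 1049). The difference of medians was 0.05 on the log2 scale, and it was 0.02, 0.07 and 0.06 when replete library A, B or C chose the peaks alone. Per library the median reads were 297.5, 249.5 and 244.5 in the 652 against 284, 240 and 237 in the others. On 23 of the 30 chromosomes the median of the 652 was the higher of the pair. The chromosomes share the same libraries, rule and FDR limit of the list, so they are not replicates. That rule and that limit can themselves raise the deprived level of the 652.

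No steady trend of deprived level with replete level was seen over the whole range. Median deprived means were 259 normalised reads where no replete library had reads (1179 peaks), and 273, 254 and 269 for replete means up to 1, from 1 to 2 and from 2 to 4 (249, 236 and 642 peaks). They were 264 for replete means from 4 to 8 (1067 peaks), 271 from 8 to 16 (1306 peaks), 273 from 16 to 32 (599 peaks) and 281 above 32 (53 peaks). Spearman's rho between replete and deprived means was 0.06 across the 5331 higher peaks and -0.002 across the 652, again as a description across peaks measured in the same libraries.

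**Figure D3:**
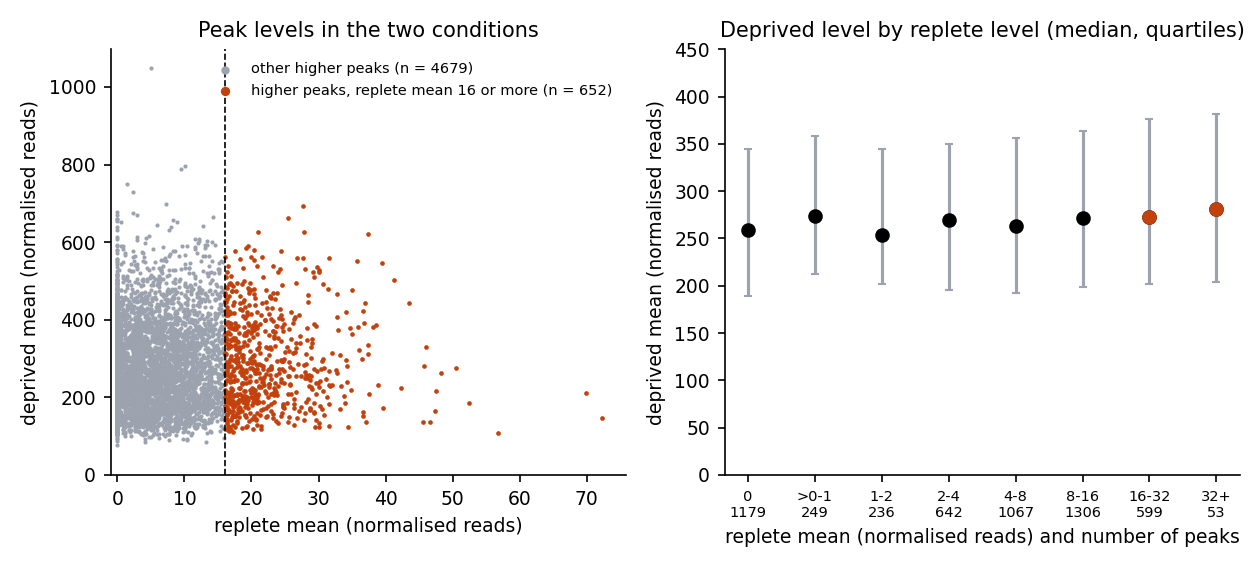
Left, deprived against replete mean in normalised reads for the 652 peaks (orange) and the 4679 other higher peaks (grey), with the threshold of 16 as a dashed line. Right, median deprived mean with quartiles as bars by range of replete mean, with the number of peaks under each range; the medians stay between 254 and 281.

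The share of these peaks, 12.2% of all higher peaks, varied with the deprived level. The rule asks for a deprived mean above the replete mean, and the list holds only peaks under an FDR of 0.05. Both can raise the deprived level of the 652, so the shares below are a description only. With the higher peaks ordered by deprived level into 4 equal parts, 14.3% of the highest part belonged to the 652, against 11.3%, 11.6% and 11.8% of the other 3 from low to high. They made up 17.2% of the 500 strongest (86 peaks), 18% of the 100 strongest and 12% of the 50 strongest (6 peaks), so the very strongest held no more than the overall share. The highest deprived mean of the 652 was that of peak_2521 on chromosome 20 from 656542 to 656942, with 758, 629 and 609 deprived reads and 58, 31 and 3 replete reads, the seventh highest of all higher peaks. Peak_3425 on chromosome 28 from 483590 to 483990 followed with 709, 597 and 595 deprived reads, and there 76 of its 84 replete reads lay in library A. Next came peak_2425 on chromosome 20 from 131274 to 131674 with 647, 594 and 555 deprived reads against 57, 29 and 6 replete reads. At these 3 peaks library A carried most of the replete mark.

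The other 2 of the 5 strongest had replete reads in every library at closer levels. Peak_507 on chromosome 10 from 1097603 to 1098003 had 698, 536 and 563 deprived reads against 26, 17 and 22. In peak_364 on the same chromosome from 315764 to 316164 there were 676, 555 and 551 against 44, 24 and 46. The weakest of the 652 in deprived cells, beside peak_855, were peak_3765 on chromosome 3 from 1292998 to 1293398 with 116, 90 and 108 deprived reads and peak_2081 on chromosome 2 from 123004 to 123404 with 123, 99 and 104. Both had 0 reads in replete library C.

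The ratio of deprived to replete mean had a median of 12.5 in the 652 (quartiles 9.07 and 17.9, range 1.93 to 35.1) as the authors scaled the libraries. It was 43.9 (quartiles 26.5 and 87.8) in the 3500 remaining higher peaks that had any replete read, a gap that the rule itself sets. In the authors' deposited table the log2 fold change had a median of 3.58 over the 652 and of 5.87 over the others. A ratio of at least 16 was found in 217 of the 652 and a ratio under 4 in 10. The lowest ratios after peak_855 were those of peak_3922 (2.03) and peak_4405 on chromosome 5 from 1184834 to 1185234 (2.91), which had 60, 59 and 30 replete reads against 162, 111 and 119. At the high end were peak_1909 (35.1), peak_1616 on chromosome 16 from 762374 to 762774 (32.9) and peak_3056 on chromosome 25 from 165054 to 165454 (32.8). Both peak_1909 and peak_1616 had no reads in replete library C.

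The ratio depended on the scaling and on library A. At equal reads its median was 0.352 for the 652 and 1.65 for the other higher peaks with reads. A ratio above 1 was kept by 10 of the 652 and by 2451 of those 3500 others. Equal reads set the totals of both conditions equal over the list, so peaks chosen for a high replete level fall low by construction. Without replete library A the median ratio of the 652 was 19.6 under the authors' scaling.

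Along the genome the 652 peaks were found on all 30 chromosomes, 7 on chromosome 30 to 42 on chromosome 2. They made up 20.0% of the higher peaks on chromosome 28 (19 of 95), 18.5% on chromosome 18 (23 of 124) and 17.2% on chromosome 19 (22 of 128). The lowest shares were 8.57% on chromosomes 14 and 15 (15 of 175 each). The order of chromosomes moved with the library: when the peaks were chosen without replete library A, chromosome 18 came first with 12.1% and chromosome 28 second with 10.5%. Chosen without library B, chromosome 28 led with 23.2% and chromosome 18 was at 18.5%, in place 17. Chosen without library C, chromosome 10 led with 27.0% and chromosome 28 was ninth with 22.1%. Chromosome 14 stayed among the lower 6 in each of these choices, at 4.57%, 10.9% and 16.6%.

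**Figure D4:**
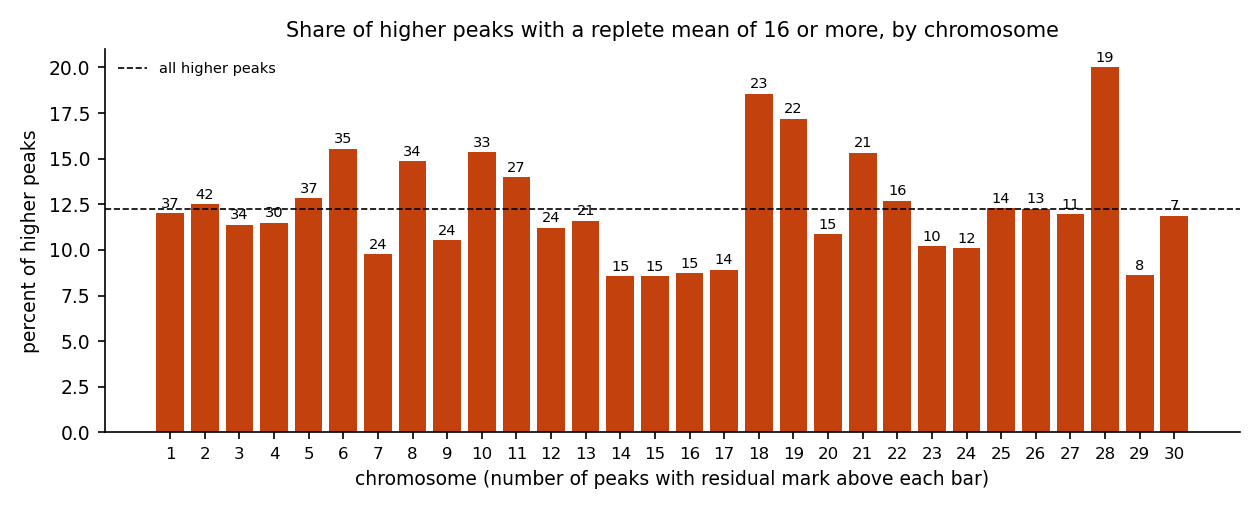
Percent of the higher peaks on each of the 30 chromosomes that had a replete mean of 16 or more, with the number of such peaks above each bar and the share over all higher peaks, 12.2%, as a dashed line. The bars run from 8.57% on chromosomes 14 and 15 to 20.0% on chromosome 28.

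Position within a chromosome was measured from the outermost listed peaks, since chromosome lengths of the files' build were not used here. The 652 peaks lay a median of 265691 bp from the nearer outermost listed peak (quartiles 148207 and 420718) and the other higher peaks 287216 bp (quartiles 156163 and 438940), a difference of -21525 bp. Within 50 kb of an outermost listed peak were 42 of the 652 (6.44%) and 384 of the 4679 others (8.21%). In 5 equal stretches of each chromosome the 652 were spread as 18.6%, 19.2%, 20.7%, 21.9% and 19.6%, and the other higher peaks as 17.3%, 22.1%, 22.3%, 21.8% and 16.5%. The 2 outer stretches thus held a larger share of the 652 than of the others, although fewer of the 652 lay within 50 kb of an outermost peak. The difference was -10197.5 bp when the peaks were chosen without replete library A.

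Spacing differed little as well. The nearest listed peak was a median of 3449 bp away from start to start (quartiles 2501 and 4906, range 1181 to 20111) for the 652 and 3371 bp (quartiles 2436 and 4714) for the others, 78 bp more. That small difference turned to -130.5 bp when the peaks were chosen without replete library A. A neighbour within 2000 bp was found for 59 of the 652 (9.05%) and for 529 of the others (11.3%). A lower peak was the adjacent listed peak of 4 of the 652 (0.613%) and of 84 of the others (1.80%).

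The closest of the 652 to another listed peak were peak_209 on chromosome 1 from 1109886 to 1110286 at 1181 bp and peak_5135 on chromosome 8 from 1109001 to 1109401 at 1241 bp. Peak_209 had 60, 33 and 18 replete reads against 97, 118 and 134 deprived reads, one of the weaker deprived levels. The most isolated was peak_1808 on chromosome 18 from 111590 to 111990, the outermost listed peak at one side of its chromosome, 20111 bp from the next. It had 27, 29 and 34 replete reads and 187, 112 and 167 deprived reads. Next was peak_4469 on chromosome 6 from 182936 to 183336 at 15067 bp, with 69, 28 and 11 replete and 369, 347 and 354 deprived reads.

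Adjacent listed peaks belonged to the same group slightly more often than listed peaks in general. The adjacent listed peaks were counted from each of the 652 in turn, so a peak can count more than once. Of the 1298 counted, 192 (14.8%) belonged to the 652 themselves, where they make up 12.1% of the list. That 12.1% is over all chromosomes, whereas adjacent peaks share a chromosome. By chromosome the 652 made up 8.57% to 20.0% of the higher peaks. How much of the excess goes with the chromosome was not tested. At places 2 to 5 along the chromosome the share was 12.7% to 13.7%. For neighbours within 2500 bp it was 17.2%, or 30 of 174 counted in the same way. Chosen without replete library A, the share was 7.35% where such peaks make up 6.38% of the list, chosen without library B it was 18.7% against 18.3%, and chosen without library C 23.2% against 20.6%. Levels of adjacent peaks were hardly related, as Spearman's rho between adjacent higher peaks was 0.04 for the replete mean and -0.005 for the deprived mean over 5257 pairs.

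**Figure D5:**
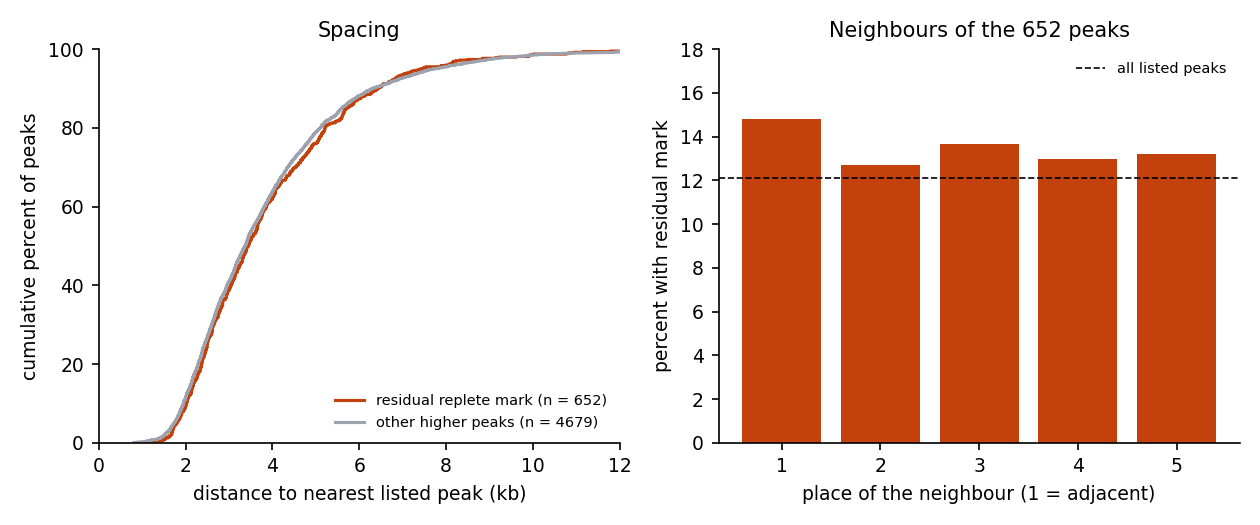
Left, cumulative percent of peaks by distance to the nearest listed peak in kb, for the 652 peaks (orange) and the 4679 other higher peaks (grey), with medians of 3449 and 3371 bp. Right, percent of listed peaks 1 to 5 places away, counted from each of the 652 in turn, that belong to the 652 too. It is 14.8% for adjacent peaks, and their share of the whole list, 12.1%, is a dashed line.

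A total of 477 of the 652 had no adjacent listed peak of the same kind, as most would at a 12.1% share of the list, 130 stood in pairs and 36 in runs of 3. A single run of 4 lay on chromosome 8 from 1094489 to 1109401. The longest run was 5 consecutive listed peaks, peak_886 to peak_890, on chromosome 12 from 833220 to 858894, a stretch of 25675 bp. Its replete reads in libraries A, B and C were 26, 28 and 0 in peak_886, 28, 27 and 27 in peak_887, and 50, 9 and 0 in peak_888. In peak_889 they were 37, 4 and 38 and in peak_890 37, 11 and 14. Only peak_887 had similar reads in all 3 libraries, and the deprived means along the run, 218, 318, 244, 174 and 289 normalised reads, lay within the range of the other peaks.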

How the data were processed

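The values come from 1 deposited table of differential peaks between deprived and replete lactyllysine ChIP libraries. It gives log2 group means, a log2 fold change, a p-value and an FDR per peak, as deposited by the authors. Reads were single-end; Trim Galore, BWA, Picard, deepTools and MACS2 are named, without versions, per the submitters' processing notes. The sources used here name neither the genome build nor the differential tool, and do not say whether a control was subtracted. Group means listed at 0 stand for means under 1.

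Whole reads were recovered as the sets of 3 whole numbers that, times the worth of 1 read per library, give each mean (relative tolerance 4e-13). Worths were first found from up to 40 of the lowest distinct means per condition and then refitted on more of them. They were 0.969, 1.05 and 1.13 deprived, 0.888, 0.902 and 1.12 replete. A group mean listed at 0 was first rebuilt from the mean over both conditions and solved at a tolerance of its own. Each mean had exactly 1 solution in all 5375 peaks, or was set to 0 reads (1179 replete and 5 deprived). Of 500 altered values per group 0 could be solved, and in simulated peaks 100% came back exactly.

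No test was run: the choice used both group means, and peaks are not replicates. Named peaks follow fixed ranks of replete mean, deprived mean, ratio, distance to the threshold and spacing, plus the longest run. The members, ranks and comparisons were chosen with earlier results of these data known. The reference table holds 160 organelle genes and 0 on nuclear chromosomes, so no gene was named. Python 3.11.15, numpy 2.4.6, pandas 2.3.3, scipy 1.17.1 and matplotlib 3.10.9 were used.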

Additional observations from a re-analysis of the deposited data

How the results depend on the processing

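Of 44 alternative values, 26 differed from the reported one by no more than the standard deviation between replete libraries used alone. For the ratio that standard deviation, 6.73, is of another measure than the median ratio. It is the summed deprived mean of the 652 over their summed level in each replete library. The median ratio of 12.5 turned to 0.352 with equal reads in the listed peaks, a scaling that sets both conditions equal over the list. Leaving out each library gave 10.6 to 19.6, the highest without replete library A. The deprived level difference of 0.05 (log2) was 0.081 at a threshold of 5 on the log2 replete mean and 0.083 at an FDR under 0.01, and 0.04 to 0.06 with each library left out. The distance difference to the nearest listed peak (78 bp) had no stable size or sign: -10 and -371 bp at thresholds of 3 and 5, 105 bp against peaks with a replete mean not listed at 0, 103.5 bp at an FDR under 0.01, 57 bp with only higher peaks as neighbours, and -130.5 to 44 bp with each replete library left out. The distance difference to an outermost listed peak was -64168.5 bp at a threshold of 5 (53 peaks) and -17578 to -10197.5 bp with each replete library left out (3 values added after seeing the data). The excess of peaks with residual mark among adjacent peaks, 2.66 percentage points, was 0.42 to 2.55 points with each replete library left out. When replete library A, B or C alone chose the peaks, that excess was 1.16, 0.11 and 0.85 points. The nearest distance difference was then -9, -17.5 and -18 bp. With as many peaks taken by replete mean at equal reads (also added after seeing the data, sharing 494 of the 652), the excess was 2.06 points and the nearest distance difference 37 bp. The cause of these shifts was not tested. Chromosome ends of a reference genome were not run. No paired analysis was possible because the group means come without replicate numbers. The low replete reads, 45 to 228 per peak over 3 libraries, limit how firmly single peaks can be placed on either side of the threshold.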
